A study of Mus musculus with 2 samples.

Results

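The genes described here encode the proteins of the cytosolic ribosome. They were taken by name, as the rows whose symbol starts with Rpl or Rps followed by a number, the stalk genes Rplp0 to Rplp2, and Rpsa. A row also needed at least 10 UMIs (unique molecular identifiers, each marking 1 captured RNA molecule) over both matrices, which left 82 genes of 32285 rows. One name, Rpl39l, fell under the limit with 6 UMIs, and the lowest above it were Rpl10l with 47 and Rpl3l with 619. All 82 had counts in both libraries, are annotated as protein-coding and lie on 19 chromosomes.

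The cells were late promyelocytes from leukemic mouse bone marrow, whose progenitors had been transformed by PLZF/RARA, the fusion of a zinc finger protein with the retinoic acid receptor alpha found in an acute promyelocytic leukemia that responds poorly to retinoic acid. They were sorted as Cd45.2+, C-Kit+, Gr1+, Cd34- and FcγR+, so both groups share the fusion, the sort and the injections. The vehicle group received corn oil with 10% DMSO and the other received retinoic acid (0.8 to 1 mg), each by intraperitoneal injection over 7 days. A cohort held 3 to 5 mice, and the labels do not say how many gave cells to a library or how the fusion was introduced. Each group held 1 library, so no difference between libraries below has a replicate check and no test was made. Treatment, mice and preparation cannot be told apart in any of them.

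A ribosome has a small subunit, which reads the messenger RNA, and a large subunit, which joins amino acids, and nearly every ribosomal protein is needed once per particle. Many ribosomal protein mRNAs begin with a C followed by a run of pyrimidines, the terminal oligopyrimidine (TOP) tract, through which growth signals control their translation. Dividing myeloid progenitors are rich in these mRNAs. As granulocytes mature they stop dividing and make granule proteins in successive waves.

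The start sites were searched for this feature. RefSeq promoter sequences (GRCm38.p6) were matched by symbol for 62 of the 82 genes. The annotated first base was a C that opened a run of at least 5 letters made of C and T in 12 of them (19.4%), against 2.50% of all 32817 promoters in the table. This was read on the coding strand only, and no match says only that these letters do not open the annotated transcript. The windows below run 5′ to 3′ from 30 bases before to 15 bases from the annotated start, with the tract in capitals. The first 5 carry a tract and the last 2, chosen because their ratios between the libraries lay near either end, do not.
Rpl15 (chr14:18270972-18271016, minus strand): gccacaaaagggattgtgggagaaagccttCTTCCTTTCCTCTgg
Rpl35 (chr2:39005117-39005161, minus strand): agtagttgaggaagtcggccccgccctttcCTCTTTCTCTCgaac
Rps10 (chr17:27635230-27635274, minus strand): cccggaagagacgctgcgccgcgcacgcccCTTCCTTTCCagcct
Rps6 (chr4:86857353-86857397, minus strand): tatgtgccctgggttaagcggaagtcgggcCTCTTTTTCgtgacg
Rpl14 (chr9:120571487-120571531, plus strand): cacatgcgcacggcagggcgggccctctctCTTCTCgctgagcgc
Rplp0 (chr5:115559437-115559481, plus strand): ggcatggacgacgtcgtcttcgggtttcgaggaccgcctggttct
Rpl37a (chr1:72711230-72711274, plus strand): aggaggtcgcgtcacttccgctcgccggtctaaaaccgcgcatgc
The tract is 13 letters long in Rpl15, 11 in Rpl35, 10 in Rps10, 9 in Rps6 and 6 in Rpl14. A tract did not go with 1 direction between the libraries. The 12 genes that carry one had log2 ratios of retinoic acid over vehicle from -0.54 (Rpl14) to 0.25 (Rps6), with a median of -0.10 and 8 below 0, against 49.5% of all 5548 genes that reached 20 CPM (UMIs per 1000000 UMIs of a library) in either library. The 47 matched genes without one, at the same level limit, ranged from -0.64 to 0.27 with a median of -0.15 and 32 below 0.

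After filtering, the vehicle library held 5476 cells and 99107718 UMIs and the retinoic acid library 7140 cells and 110088247 UMIs, with medians of 16749.5 and 14604 UMIs per cell. Mitochondrial UMIs made up 2.10% and 1.32% of the libraries, and 11 barcodes occurred in both. Markers fitted the promyelocyte label in part. Of 12 promyelocyte genes, 10 reached 20 CPM under vehicle and 9 after retinoic acid, while Mpo stood at 311 and 0.50 CPM and Elane stood at 62.8 and 7663 CPM. Markers of other cells moved between the libraries too. The summed level of 9 mast cell or basophil genes went from 806 to 68.1 CPM (Fcer1a and Tpsb2 at 0 in both), that of 8 eosinophil genes from 126 to 34.7 CPM and that of 7 monocyte or macrophage genes from 80.0 to 8.92 CPM. The sum of 6 T or NK cell genes, nearly all Nkg7, went from 1284 to 575 CPM, with Cd3e, Cd4 and Cd8a at 0. The part of these markers in the results below was not tested.

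Ribosomal protein genes supplied 28998327 UMIs of the vehicle library, 29.3% of its total (exact 95% binomial interval 29.25 to 29.27%, counting error only). In the retinoic acid library they supplied 28092730 UMIs, or 25.5% (25.51 to 25.53%). The pool was therefore smaller after retinoic acid by 0.20 on the log2 scale. Granule genes moved the other way: a list of 33 genes drawn up for primary, secondary and tertiary granules took 1.16% of all vehicle UMIs and 8.67% after retinoic acid. Not every product on this list is a granule protein. Among its genes are S100a8 (139 and 13352 CPM) and S100a9 (331 and 13874 CPM). With that list left out of the total, the ribosomal protein share was 29.6% and 27.9%. The barcodes removed by the filters carried less, 21.0% and 22.0%.

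To compare cells at 1 depth, UMIs were drawn at random down to 5000 in every cell that had them. This kept 5282 vehicle cells and 6659 retinoic acid cells, while 194 and 481 shallower ones were left out. The median vehicle cell gave 29.52% of its UMIs to ribosomal protein genes, with quartiles of 26.94 and 32.62%. The median retinoic acid cell gave 26.08%, with quartiles of 22.73 and 28.58%. The spread between cells (SD 4.23 and 5.68 percentage points) was well above that from counting 5000 UMIs (0.648 and 0.612). Unthinned medians were 29.44 and 26.10%.

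The libraries overlapped, but the retinoic acid cells lay lower in the middle and at both ends. Of the retinoic acid cells, 82.0% lay below the vehicle median and 32.2% below the 5th percentile of the vehicle cells. Only 15 of 6659 (0.225%) lay above the 95th percentile of the vehicle cells. A share under 20% was found in 36 of 5282 vehicle cells (0.682%, exact 95% binomial interval 0.478 to 0.942%) and in 1012 of 6659 retinoic acid cells (15.2%, 14.3 to 16.1%). Of those 1012 cells, 946 were in the quartile group of the library with the highest granule gene share.

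**Figure D1:**
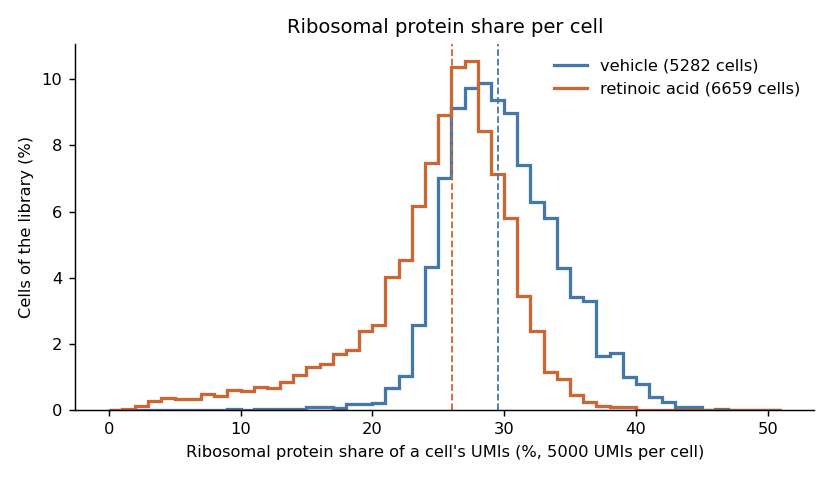
Distribution of the ribosomal protein share over single cells (x axis, percent of 5000 UMIs per cell, 1% bins; y axis, percent of the library's cells), with dashed lines at the medians of 29.52% for vehicle and 26.08% for retinoic acid. The retinoic acid cells extend below 20%, where 15.2% of them lie against 0.682% of vehicle cells.

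Cycling state divided the vehicle cells. Phases were called from lists of 43 S and 54 G2/M genes, which put 49.1% of vehicle cells in G1, 20.3% in S and 30.6% in G2/M, and 19.3%, 40.6% and 40.1% of retinoic acid cells. Vehicle G1 cells had a median share of 32.14%, S cells 28.28% and G2/M cells 27.16%, a difference from G1 of -3.86 points in S and -4.98 points in G2/M. Depth moved with the phase: the median vehicle cell held 13610 UMIs in G1, 18860.5 in S and 24210 in G2/M. In absolute counts before thinning, it held 4409, 5270.5 and 6551 ribosomal protein UMIs, more in the cycling states than in G1.

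Retinoic acid cells showed little difference between phases as whole classes, with medians of 26.02% in G1, 26.66% in S and 25.62% in G2/M. Their G1 cells were the most varied, with quartiles of 16.74 and 30.08% and an SD of 8.86 points. They also held the most RNA of the granule list, a median of 10.9% of UMIs against 6.18% in S and 5.68% in G2/M. With the granule list left out of the total, the medians were 29.32%, 28.61% and 27.28%, in the vehicle order. The 2 libraries also differed in their mix of phases. Weighted to the vehicle proportions of phases, the mean retinoic acid share was 24.3%, against 24.99% as measured and 29.9% for vehicle.

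Cells of each library were then ranked by their granule gene share and cut into 4 quartile groups of near-equal size. The vehicle medians for ribosomal protein genes were 32.66%, 29.91%, 28.76% and 27.96% from the lowest to the highest group. The retinoic acid medians were 28.62%, 27.26%, 25.54% and 19.12%. The steps were small over the first 3 groups of the retinoic acid cells and larger to the last, whose median cell spent 21.8% of its UMIs on granule genes. Granule UMIs reduce every other share by taking part of the total. With them left out, the retinoic acid medians were 29.53%, 28.72%, 27.88% and 24.48%, each lower than the one before. The rank correlation of the share with the granule share over cells, given as a description since both are parts of 1 total, was -0.36 over 5282 vehicle cells and -0.72 over 6659 retinoic acid cells. With the granule list out of the total it was -0.33 and -0.48.

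The vehicle gradient depended on which granule genes ranked the cells. By secondary granule genes alone, such as Camp and Ngp, the highest vehicle quartile group lay 0.66 points above the lowest, where the full list put it 4.70 points below. Without Mpo and the serine proteases of primary granules (Elane, Prtn3, Ctsg, Prss57) it lay 2.50 points below.

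Phase and granule share were then split jointly. Among retinoic acid G1 cells the medians over the quartile groups were 31.24% (239 cells), 30.04% (209 cells), 28.18% (229 cells) and 16.06% (607 cells). In the last of these the median cell held 1302 ribosomal protein UMIs before thinning, against 4007 in the first. With the granule list out of the total, the medians were 31.99%, 31.75%, 30.60% and 23.63%. Among S cells they ran from 28.86% to 20.16% of all UMIs and among G2/M cells from 27.74% to 19.38%. In the lowest retinoic acid quartile group the phases stood in the vehicle order, at 31.24% in G1, 28.86% in S and 27.74% in G2/M. In the highest quartile group G1 had the lowest share of all UMIs, but with the granule list out of the total G1 (23.63%) and G2/M (23.57%) were level and S stood at 25.21%.

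**Figure D2:**
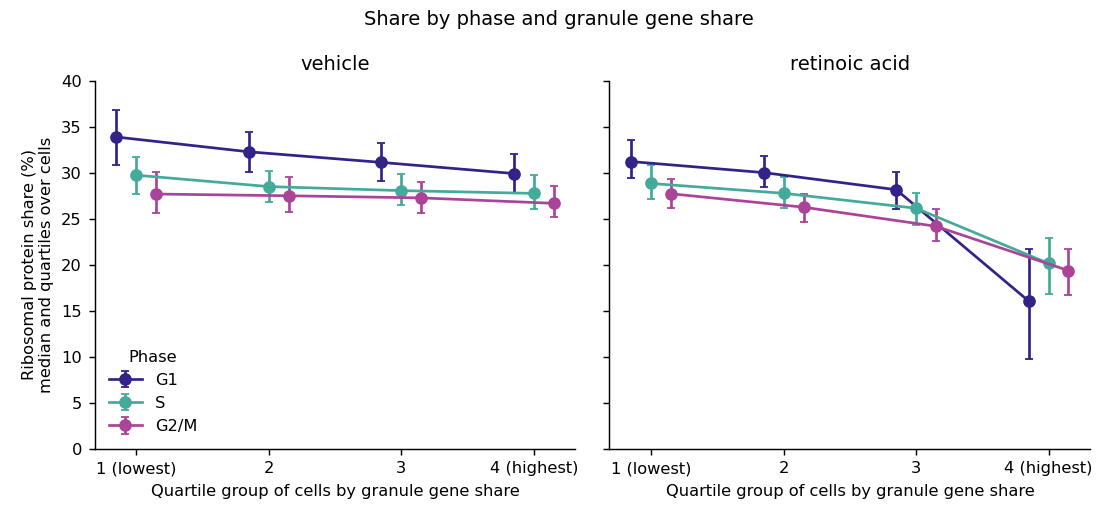
Median ribosomal protein share (y axis, percent of UMIs) with quartile bars over cells, by quartile group of granule gene share within a library (x axis), for G1, S and G2/M cells of each library. Retinoic acid G1 cells start highest at 31.24% and end lowest at 16.06%, while vehicle G1 cells go from 33.91% to 29.94%.

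Cells of the 2 libraries were also compared at fixed ranges of granule share. An equal share need not come from the same genes. In the library sums Ctsg had the most UMIs of the list in vehicle (6444 CPM), and Camp (18200 CPM) and Ngp (14010 CPM) had the most after retinoic acid. Between 0.5 and 2% granule UMIs the medians were 29.32% in 4541 vehicle cells and 29.82% in 216 retinoic acid cells. Between 2 and 5% they were 28.34% (173 cells) and 28.08% (2187 cells), and between 5 and 10% they were 27.69% (24 cells) and 26.44% (2175 cells). Only 18 vehicle cells held 10 to 20% and 10 held 20% or more. Their medians of 20.12% and 15.46% stood beside 22.83% in 1124 and 15.68% in 943 retinoic acid cells. Between 0.1 and 0.5%, 501 vehicle cells had 33.52% and 14 retinoic acid cells 29.48%, and 15 vehicle cells under 0.1% had 32.82%. Between 0.5 and 5% granule UMIs the medians of the libraries thus differed by under 1 point, in either direction. G1 cells alone differed as little there, with 31.88% and 32.34% between 0.5 and 2% (2041 and 35 cells) and 30.52% and 30.60% between 2 and 5% (68 and 290 cells). In the cycling states the retinoic acid cells had the higher medians. Between 0.5 and 2% these were 28.26% and 29.98% in S (993 and 89 cells) and 27.18% and 29.13% in G2/M (1507 and 92 cells). Between 2 and 5% they were 27.58% and 28.38% in S (39 and 899 cells) and 26.15% and 27.16% in G2/M (66 and 998 cells).

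**Figure D3:**
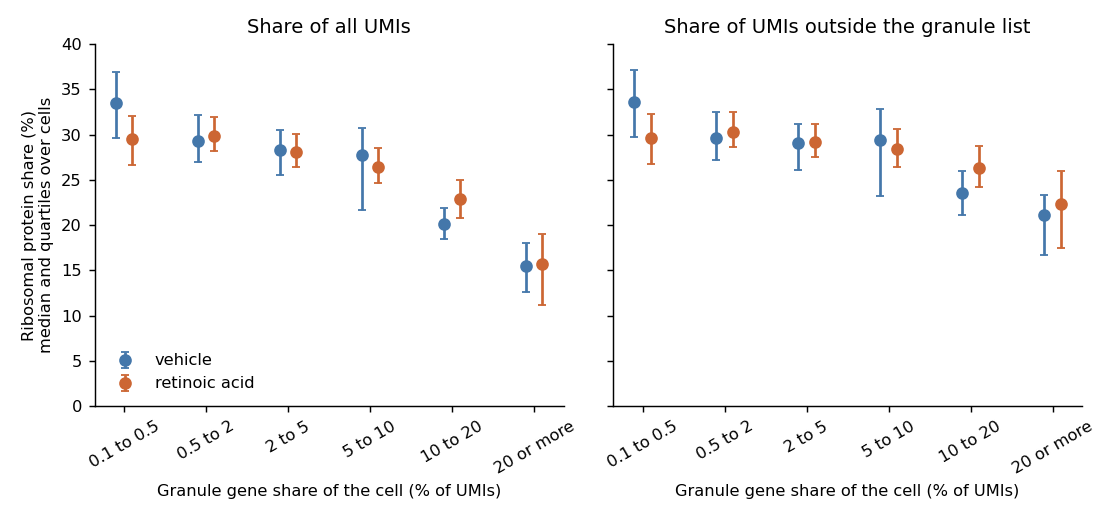
Median ribosomal protein share with quartile bars over cells (y axis, percent) at fixed ranges of granule gene share (x axis, percent of a cell's UMIs), of all UMIs on the left and of UMIs outside the granule list on the right. Both libraries have lower shares toward the right and lie within 1 point of each other between 0.5 and 5% of all UMIs, with 10 to 24 vehicle cells in the 3 highest ranges and 14 retinoic acid cells in the lowest (15 vehicle cells under 0.1% are not drawn).

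Depth did not order the cells alike in both libraries. From the shallowest to the deepest quartile group of cells, the median share went from 32.12% to 27.14% in vehicle but was 23.08%, 26.48%, 26.82% and 26.28% after retinoic acid. Cells with at most 0.1% mitochondrial UMIs, 136 in vehicle and 411 after retinoic acid, had shares of 33.34% and 27.28%, above those of the other cells of their library (29.40% and 26.02%).

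Single genes were compared in the sums over all kept cells. CPM values count 1 UMI per captured 3′ end and are not divided by gene length. A ratio is log2 of retinoic acid over vehicle CPM with 0.5 counts added. Of the 82 genes, 79 reached 20 CPM in either library, 68 of them over 1000 CPM in both. Most of them were lower after retinoic acid: 56 of the 79 (70.9%) had a ratio below 0, where 49.5% of the 5548 genes at this level did, and 23 lay above 0, against 50.5%. The shifts were small. None of the 79 reached 2-fold, against 8.07% of all genes at this level, and the median ratio was -0.15 with quartiles of -0.31 and 0.06, against a median of 0.01 for all. Leaving the granule list out of the total raises every ratio by 0.11, so that 48 of the 79 (60.8%) then lay below 0 against 37.5% of all genes. Relative to the median of all genes, the ribosomal protein median was -0.16 with either total.

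Both subunits shifted alike. The 47 genes of the large subunit had a median of -0.15 with 36 below 0. The 32 of the small subunit had a median of -0.15 with 20 below 0, where 49.5% of all genes lay below 0. Large subunit genes made up 55.4% and 55.2% of the pool. The order of levels was nearly kept, with a rank correlation of 0.98 between the libraries over all 82 genes, those under 20 CPM included. Genes of higher level had lower ratios on the whole (rank correlation -0.46 with the CPM of both libraries added, over the 79 genes, which are not independent). Longer transcripts did too (rank correlation -0.38 over the same genes). Length was that of 1 annotated protein-coding transcript per gene, from 345 to 5179 bases, which need not be the form expressed here. The 26 shortest, with a median length of 535 bases, had a median ratio of -0.07, and the 26 longest, at 1338.5 bases, one of -0.26.

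The 6 genes counted most in vehicle all had lower values after retinoic acid. Rpl13 went from 8885 to 7093 CPM (log2 ratio -0.33), Rpl32 from 8754 to 7941 CPM (-0.14) and Rps24 from 8029 to 6047 CPM (-0.41). Rps20 went from 7236 to 5428 CPM (-0.41) and Rpsa, known also as a laminin receptor precursor, from 7158 to 5782 CPM (-0.31). The lowest ratio of the 79 belonged to Rplp0, the base of the stalk that draws elongation factors to the ribosome. It went from 8185 CPM, rank 3 among the 82, to 5268 CPM, rank 12 (-0.64, exact 95% interval -0.64 to -0.63, counting error only). Its stalk partners differed less between the libraries: Rplp1 had 6123 and 5402 CPM and Rplp2 2030 and 1942 CPM.

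A gene was said to depart from the rest when its ratio lay at least 0.5 from the median of the 79. Only 3 did (3.80%, where 22.7% of all genes lay as far from their own median), and all 3 lay above it, where 10.3% of all genes lay as far above and 12.4% as far below. Rpl23a, a large subunit protein near the exit tunnel, went from 1594 to 2284 CPM (0.52, interval 0.51 to 0.53). Rps29, a zinc-binding protein of the small subunit, went from 934 to 1271 CPM (0.44, interval 0.43 to 0.46). Rpl23a and Rps29 were of middling to low level among the members, at ranks 63 and 71 in vehicle.

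The next highest was Rpl37a, from 1934 to 2328 CPM (0.27), and Rps6, the substrate of S6 kinase, from 2261 to 2690 CPM (0.25). At the low end, after Rplp0, stood Rpl14, from 4094 to 2822 CPM (-0.54), and Rps2, from 1793 to 1240 CPM (-0.53). Rpl10a, of the L1 stalk, went from 4355 to 3159 CPM (-0.46). With a limit of 0.32 in place of 0.5, 10 genes departed above and 4 below, among them Rplp0, Rpl14 and Rps2. With a limit of 1 none did.

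**Figure D4:**
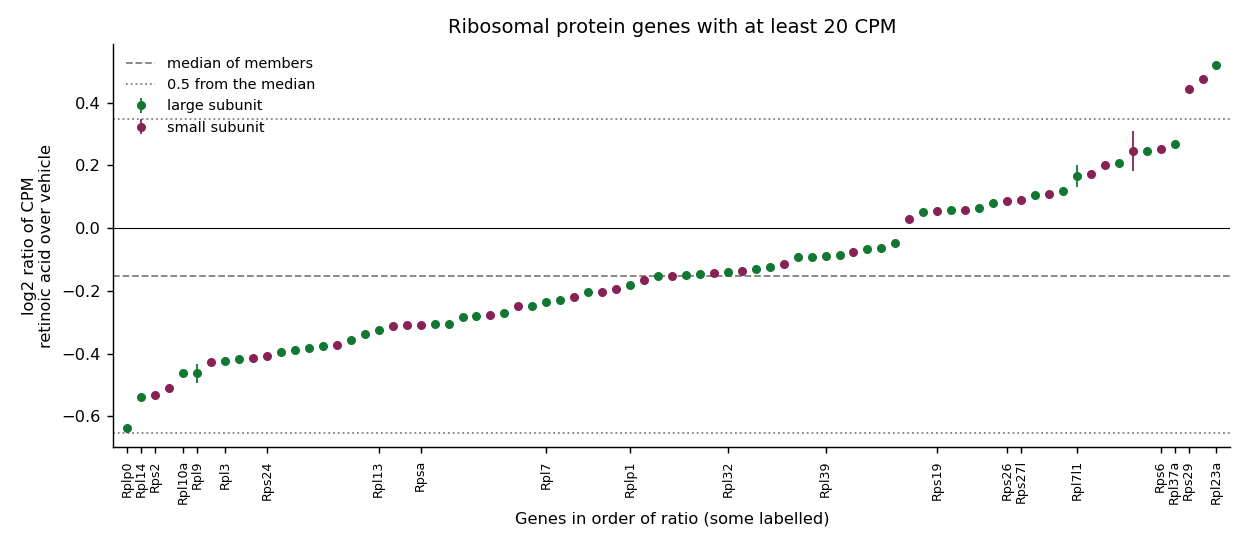
Log2 ratio of CPM, retinoic acid over vehicle (y axis), for the 79 ribosomal protein genes with at least 20 CPM (x axis, in order of ratio, some labelled), coloured by subunit, with bars for the exact 95% interval from counting. The dashed line is the median of -0.15 and the dotted lines lie 0.5 from it, with Rpl23a and Rps29 among the 3 genes above the upper one.

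Rpl23a, Rps29 and Rplp0 stood at or near the ends within each state. The states are parts of the same cells whose sums picked these genes, so this is no separate check. In G1, S and G2/M, Rpl23a had ratios of 0.29, 0.55 and 0.54, and Rps29 had 0.22, 0.48 and 0.47. Rplp0 had -0.88, -0.54 and -0.56 in the same order, with Rps2 lower than it in S (-0.58). The medians of the 79 were -0.41 in G1, -0.13 in S and -0.10 in G2/M, with 69, 56 and 52 genes below 0, against 60.3%, 60.7% and 54.3% of all genes. With the granule list out of the total the medians were -0.16 in G1 (56 of 80 below 0, against 37.9% of all genes), -0.0020 in S and -0.0042 in G2/M (40 of 79 below 0 in each, against 45.7% and 42.5%). In cells with 0.5 to 2% granule UMIs, where the median over 80 genes was 0.06 and 49 lay above 0 (62.3% of all genes), Rpl23a had 0.74, Rps29 0.77 and Rplp0 -0.52. In cells with 2 to 5% the median was 0.05 and 45 of 79 lay above 0 (57.9% of all genes), with Rpl23a at 0.96, Rps29 at 0.63 and Rplp0 at -0.41.

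Paralogs named after another member were compared with their partners. Rpl3 had 4231 and 3151 CPM (-0.43), while Rpl3l, known from striated muscle, had 3.60 and 2.35 CPM. Rpl22 had 2595 and 2187 CPM (-0.25) and Rpl22l1 1132 and 872 CPM (-0.38). Rpl7 had 3125 and 2654 CPM (-0.24), and Rpl7l1, related to a yeast factor of ribosome assembly, 120 and 135 CPM (0.17). Rps27l, a target of p53, had 833 and 886 CPM (0.09). Rps4x had 6323 and 4705 CPM (-0.43), and Rps3a1 6130 and 5269 CPM. Rpl10l, a testis gene, was at 0.23 and 0.22 CPM.

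Near-identical copies make some levels uncertain. Over the last 300 bases of 1 annotated transcript per gene, 8 of the 82 genes shared at least 1 window of 90 bases with another row of the matrix. All windows of Rpl9, Rpl10 and Rps27 were shared, with Rpl9-ps6, Rpl10-ps3 and Rps27rt, so the counting could have split their reads. Rpl10 stood at 17.7 and 15.6 CPM beside 120 and 104 CPM for Rpl10-ps3. Rps27 stood at 36.5 and 43.3 CPM beside 33.7 and 35.7 CPM for Rps27rt. Rps18, with 841 and 797 CPM, shared 55.5% of its windows with Gm10260 and Gm11361, which held 586 and 550 CPM. Rpl35 shared 95.3%, Rpl36a 91.0%, Rpl41 37.0% and Rpl17 8.06%. Adding the copies changed no sign: the ratio of Rpl9 went from -0.46 to -0.45 and that of Rps27 from 0.25 to 0.17.

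Within the vehicle library, the members moved together between phases. From G1 to S, 69 of 79 had a lower CPM, where 37.3% of all genes did, and the median ratio was -0.17 against 0.14 for all genes. From G1 to G2/M, 71 of 79 were lower, against 32.7%, with a median of -0.22 against 0.21. The phase lists hold none of these genes, but a share of a fixed total must fall where others rise. After retinoic acid, 78 of 79 were higher in S than in G1 (67.7% of all genes, median 0.15 against 0.17 for all). In G2/M 71 of 79 were higher (74% of all genes, median 0.12 against 0.29). Without the granule list in the total, the retinoic acid medians were 0.02 in S, with 48 of 79 above 0 (53.8% of all genes), and -0.05 in G2/M, with 56 of 79 below 0 (39.5% of all genes).

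A few genes did not follow. Rpl7l1 was lowest in G1 in both libraries: 91.7 CPM in G1, 129 in S and 144 in G2/M of vehicle, and 92.4, 117 and 146 CPM after retinoic acid. Its ratio of G2/M to G1 was 0.65 (interval 0.53 to 0.77) in vehicle and 0.66 (0.53 to 0.80) after retinoic acid. Rps27l had 733 CPM in vehicle G1, 870 in S and 900 in G2/M (G2/M over G1 0.30), and 0.32 after retinoic acid. Rps6 was higher than in vehicle G1 by 0.25 in S and 0.13 in G2/M.

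At the other end stood Rps24, with 9852 CPM in vehicle G1, 7502 in S and 7093 in G2/M (-0.39 and -0.47). Rps26, near the mRNA exit of the small subunit, had -0.35 and -0.48, and Rpl37 -0.37 and -0.43. The order of the members was alike in the 2 libraries, which share no cells here: the rank correlation over the 79 genes was 0.80 for S over G1 and 0.84 for G2/M over G1. After retinoic acid the lowest in S over G1 were Rpl9 (-0.04), Rps10 (0.05) and Rpl34 (0.05), and in G2/M over G1 they were Rpl9 (-0.11), Rps26 (-0.04) and Rps27 (-0.04).

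Between the highest and lowest granule quartile groups, with granule genes out of the total, 71 of 79 members were lower in vehicle, against 33.1% of all genes, with a median of -0.18. All 79 were lower after retinoic acid, against 53.6%, with a median of -0.34. In G1 alone, 71 of 80 were lower in vehicle, against 33.6%, with a median of -0.14. In G1 after retinoic acid, 79 of 80 were lower, against 52%, with a median of -0.51 where all genes had -0.04. The quartile groups were made from granule genes, which are not members.

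The members did not differ evenly between these groups after retinoic acid. Rps2, at the mRNA entry of the small subunit, had the lowest ratio, with 1494 CPM outside the granule list in the lowest quartile group and 929.5 in the highest (-0.68), and -1.01 within G1. Rpl3, which lies at the peptidyl transferase centre, had -0.60, and in G1 Rpl3 had -0.93 and Rpl22l1 -0.87. Rps19, the gene most often mutated in Diamond-Blackfan anaemia, differed little, with 5070 CPM in the lowest quartile group and 4961 in the highest (-0.03). Rpl9 (-0.05) and Rps27 (-0.06) came next, both among the genes with copies.

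In vehicle the extremes were others. Rpl7l1 (0.50) and Rps27l (0.26) were higher in the highest quartile group, and Rps24 (-0.38), Rpl39 (-0.36) and Rpl9 (-0.36) were lowest. The order of the members differed between the libraries in this contrast, with a rank correlation of -0.44 over the 79 genes.

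Related gene lists were set beside the members. Of 28 other genes whose mRNAs are known to carry a TOP tract, mainly translation factors, 23 had ratios below 0 between the libraries, with a median of -0.21. Among those at least 0.5 below 0 were Vim (1835 and 961 CPM, -0.93), the elongation factor Eef2 (1881 and 1131 CPM, -0.73) and the noncoding Gas5 (848 and 569 CPM, -0.57). Of 50 ribosome biogenesis genes, which make and process ribosomal RNA, 39 lay below 0 with a median of -0.20. Nop2 (25.7 and 16.7 CPM, -0.62), Ppan (102 and 68.0 CPM, -0.58) and Imp3 (133 and 90.4 CPM, -0.56) were the lowest. Of 75 genes of the mitochondrial ribosome, 45 lay below 0 with a median of -0.06, led by Mrps6 (22.3 and 13.8 CPM, -0.69) and Mrps35 (80.4 and 53.6 CPM, -0.59). With the granule list out of the total, the numbers below 0 were 19 of 28, 33 of 50 and 33 of 75. Of all genes, 37.5% then lay below 0, near the share of the mitochondrial list (44%). With TMM scaling (trimmed mean of M values) 37 of the 75 lay below 0 (49.3%), against 41.1% of all genes.

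The lists differed from the members within the libraries. From G1 to S, ribosome biogenesis genes had a median of 0.68 in vehicle and 0.90 after retinoic acid, and mitochondrial ribosomal protein genes 0.41 and 0.40, where ribosomal protein genes had -0.17 and 0.15. The other TOP genes, at -0.05 and 0.18, lay nearer to the members. From the lowest to the highest granule quartile group, biogenesis genes had a median of 0.42 in vehicle and -0.94 after retinoic acid, where members had -0.18 and -0.34. All 50 biogenesis genes were lower in the highest retinoic acid quartile group, where 53.6% of all genes were lower. The other TOP genes there had -0.41 (25 of 28 lower) and the mitochondrial ribosomal protein genes -0.43 (69 of 74 lower).

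**Figure D5:**
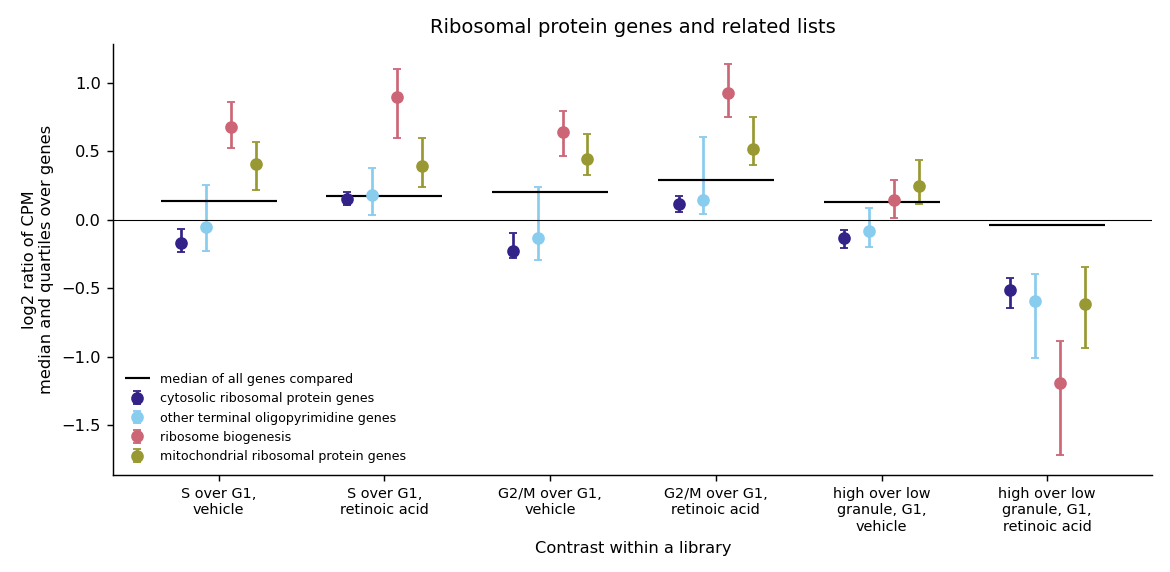
Median log2 ratio of CPM with quartile bars over genes (y axis) for ribosomal protein genes and 3 related lists in 6 contrasts within a library (x axis), with black lines for the median of all genes; the 2 granule contrasts are within G1 with granule genes out of the total. Ribosomal protein genes lie below the biogenesis genes in the 4 phase contrasts, at -0.17 against 0.68 for S over G1 in vehicle, and above them in retinoic acid G1 cells, at -0.51 against -1.19.

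Among 1130 other genes with at least 100 CPM in both libraries, the 5 most correlated with the summed ribosomal protein share over thinned cells were taken by the lower of the 2 libraries' Pearson correlations, over 5282 and 6659 cells. They were Eef1b2 (0.45 in vehicle and 0.53 after retinoic acid), Eef1a1 (0.45 and 0.66), Gas5 (0.44 and 0.48), Eef2 (0.41 and 0.45) and Fau (0.59 and 0.40). Fau encodes a ribosomal protein of the small subunit under another name, and so was outside the rule. Detection was near complete: at 5000 UMIs, 69 of the 79 members had a UMI in at least 99% of vehicle cells and 64 in at least 99% of retinoic acid cells. The ratio of variance to mean over cells, which is 1 for counting alone, had a median of 1.62 in vehicle and 2.01 after retinoic acid. It was highest for Rps24 (3.73) in vehicle and for Rps12 (3.33) after retinoic acid.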

How the data were processed

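Single sorted promyelocytes were profiled with the 10x Genomics 3′ v2 kit, aiming at 6000 cells each. The authors deposited UMI counts made with Cell Ranger 4.0.0, per the file headers, without normalisation; builds mm10 and GRCm38.p4 stand in the submitters' processing notes. Cells with at least 1000 UMIs, 500 genes and at most 10% mitochondrial UMIs were kept. Scrublet called 2 and 5 cells (0.0365% and 0.0700%) doublets. These calls were not used and no cells were removed by them. Whether doublets were missed was not tested. Counts were summed per library. Phases were scored in scanpy 1.11.5 from genes found in at least 10 cells. The edgeR 4.0.16 TMM factors served as an alternative scaling. Lengths, gene types and copies came from GENCODE M21. The ratio, its interval and the thinning were tested on simulated data.

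The members and lists were chosen with earlier results of these data known. Named were the 6 most counted members, those departing by at least 0.5, the 5 highest and 5 lowest ratios, paralogs, the 3 extremes of each contrast within a library, list genes at least 0.5 from 0, and the 5 most correlated genes. The stalk partners Rplp1 and Rplp2, and Rps12 and Rps24 for their spread, were named after their values were seen. A few named by these rules are not reported here. Alternatives are in the closing section.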

Additional observations from a re-analysis of the deposited data

How the results depend on the processing

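Over 12 results, 72 values were recomputed: 47 were labelled unchanged, 19 moved and 6 changed sign. For phase and granule differences, unchanged meant within limits sized by the counting error of a single cell. These are wider than the counting error of a median over many cells, so the 47 may overstate stability. For the retinoic acid G2/M minus G1 difference of -0.40 they ran from -1.60 to 0.80. The count of departing members had no error limits. The member median of -0.15 became -0.073 with TMM scaling, -0.23 with every cell weighted equally and -0.039 with the granule list out of the total. In the same order the other TOP genes (-0.21) had -0.13, -0.26 and -0.097. The biogenesis list (-0.20) had -0.12 with TMM and -0.091 without granule genes, and the mitochondrial ribosomal protein genes (-0.06) changed sign to 0.017 and 0.050. The count of departing members, 3, became 14 at a limit of 0.32 and 0 at 1. The share difference of -3.74 points became -5.18 with cells weighted equally, -1.66 without granule genes, -3.72 at a 5% mitochondrial limit, -3.70 with all barcodes and -3.71 without the 5% highest doublet scores. The vehicle granule difference of -4.70 points changed sign to 0.66 with secondary granule genes only and became -2.50 without Mpo and serine proteases. The retinoic acid one of -9.50 became -5.05 without granule genes and -15.18 in G1 only. The retinoic acid S minus G1 difference of 0.64 changed sign to -0.71 without granule genes and to -0.26 with undetected genes kept in the phase scoring, an alternative chosen after seeing the data. The G2/M minus G1 difference of -0.40 changed sign to 0.05 at 3000 UMIs and became -2.04 without granule genes. Leaving genes out of a total raises the other shares by construction, and the cause of the remaining changes was not tested. No paired analysis was possible because there was only 1 library in each group. Depth limits single genes under 20 CPM (Rpl3l, Rpl10 and Rpl10l), and intervals cover counting error only.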
